A study of Mus musculus with 12 samples.

Results

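The interleukin 1 and NF-kB response genes are 10 of the 48795 gene IDs counted in an RNA sequencing study of cultured mouse dorsal root ganglia (DRG), which contain sensory neuron cell bodies together with glial, connective tissue and vascular cells. They are the ligand genes Il1a and Il1b, the chemokine gene Ccl2, the prostaglandin synthase gene Ptgs2, the inhibitor and modulator genes Nfkbia, Nfkbiz and Tnfaip3, and the transcription factor genes Nfkb1, Nfkb2 and Relb. The 10 were chosen by symbol with earlier results of these data known, so their values are given as a description, without p-values. Of the 10, 9 passed the filter on low counts and entered the fit. Il1b did not pass, and Il1a passed only through the libraries in which it was high.

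All cultures came from C57/Bl6 wild-type mice and fall into 3 groups of 4 libraries: untransfected cultures, cultures given a control antisense oligonucleotide (ASO) at 50 nM, and cultures given a mix of ASOs against GI-SINE RNA at 50 nM. An ASO is a short synthetic strand that pairs with a chosen RNA, and GI-SINE is the study's name for growth inducing transcripts of B2 repeats. The series design states that every replicate number stands for a culture of 1 mouse that was shared out over the 3 conditions, so the 4 mice are matched across groups. Age and sex of the mice and the days in culture were not given in the sources used here. A group transfected without any ASO was not included, so the procedure and the control ASO cannot be told apart. The level of GI-SINE RNA was not analysed here. The cultures are mixtures of cells, and in bulk RNA fewer cells of a type and less RNA per cell cannot be told apart.

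Interleukin 1 alpha and beta are cytokines that bind the same receptor, which recruits the accessory chain encoded by Il1rap and signals through the adaptor MYD88 and the IRAK kinases. The signal frees NF-kB, a family of dimers of REL proteins held in the cytoplasm by inhibitors of the IkB family, and NF-kB then binds the promoters of inflammatory genes. Among its targets are genes of its own inhibitors, such as Nfkbia and Tnfaip3, which close the loop. In the DRG, interleukin 1, CCL2 and prostaglandins are known as mediators that sensitise sensory neurons.

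Promoter sequences were printed for 4 of the genes because they show the kind of element through which NF-kB acts, with Il1a, the gene of the largest difference, set beside 3 genes whose window held a match. They are RefSeq promoters of GRCm38.p6, and the 250 bases before the start annotated for the promoter are given 5′ to 3′ on the strand of the gene. For Nfkb2 and Tnfaip3 this start differs from the gene coordinates given below. The Nfkb2 stretch lies wholly, and the Tnfaip3 stretch almost wholly, within the gene by those coordinates. Capitals mark matches to the NF-kB consensus decamer, searched on both strands in windows that run from 250 bases before to 50 bases after the start. The stretches are chr2:129309973-129310222 (minus strand) for Il1a, chr12:55492648-55492897 (minus strand) for Nfkbia, chr10:19015411-19015660 (minus strand) for Tnfaip3 and chr19:46304487-46304736 (plus strand) for Nfkb2.
Il1a: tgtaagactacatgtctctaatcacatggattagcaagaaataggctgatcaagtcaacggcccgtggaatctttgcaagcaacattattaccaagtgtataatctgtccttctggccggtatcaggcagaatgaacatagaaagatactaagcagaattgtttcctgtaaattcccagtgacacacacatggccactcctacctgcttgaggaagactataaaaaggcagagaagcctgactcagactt
Nfkbia: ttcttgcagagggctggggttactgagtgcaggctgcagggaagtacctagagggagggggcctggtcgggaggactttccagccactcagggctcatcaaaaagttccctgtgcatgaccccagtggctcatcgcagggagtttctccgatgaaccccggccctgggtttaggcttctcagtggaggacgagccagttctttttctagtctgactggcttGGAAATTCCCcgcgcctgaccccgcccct
Tnfaip3: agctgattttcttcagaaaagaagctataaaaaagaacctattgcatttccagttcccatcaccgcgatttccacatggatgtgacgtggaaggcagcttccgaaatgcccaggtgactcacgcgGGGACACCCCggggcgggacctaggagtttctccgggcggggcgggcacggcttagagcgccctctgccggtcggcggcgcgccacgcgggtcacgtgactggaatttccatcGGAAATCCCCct
Nfkb2: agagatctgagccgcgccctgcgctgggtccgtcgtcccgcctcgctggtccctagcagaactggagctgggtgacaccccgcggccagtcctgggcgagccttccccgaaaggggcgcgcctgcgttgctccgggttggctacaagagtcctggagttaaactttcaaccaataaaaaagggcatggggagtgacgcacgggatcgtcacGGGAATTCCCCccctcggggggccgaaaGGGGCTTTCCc
The Nfkbia window held 1 match, whose first base lies at -29 from the start. In Tnfaip3 the matches begin at -125 and -12. The Nfkb2 window printed here held 3 matches, at -39, -38 and -11, and the first pair overlap and appear as 1 run of capitals. RefSeq windows were found for 6 of the 10 genes, as 9 windows, and 5 of the 9 held a match, all of them in Nfkbia, Nfkb2 and Tnfaip3. Counted by gene, 3 of the 6 held a match. Nfkb2 has several windows, and an overlapping pair of them shares a match, so that site is counted again. Windows of Il1a, Il1b and Ptgs2 held none, which says only that these letters are not in these windows. Among all 32851 promoter windows of the same length, 1480 (4.51%) held a match. No window was matched for Nfkbiz, Relb, Nfkb1 and Ccl2.

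Total counts ranged from 14864622 to 22704267 per library, and between 15.7% and 19.5% of them fell in 3 loci that collect ribosomal RNA reads. The libraries of mouse 4 stood apart. On the first principal component, which held 57.3% of the variance, the ASO mix library of mouse 4 lay at 25.94 and those of mice 1 to 3 between 64.39 and 72.25. The summed level of 6 endothelial markers was 121, 102 and 107 CPM (counts-per-million, on TMM-scaled library sizes) in the untransfected, control ASO and ASO mix libraries of mouse 4. In the other mice it was 20.7 to 31.2, 15.4 to 26.1 and 9.88 to 15.2 CPM. Results below are therefore given with and without mouse 4 where the mouse changes them.

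Across all 16831 genes tested with edgeR's quasi-likelihood test, 27.3% were higher and 28.8% lower in the ASO mix than in the control ASO at an adjusted p under 0.05. Control ASO cultures had 10.5% of genes higher and 13.7% lower than untransfected cultures, and the ASO mix had 30.1% higher and 31.1% lower than untransfected. Of the genes called, 48.7% were higher in the first comparison, 43.5% in the second and 49.2% in the third. Scaling by library size alone gave 34%, 55.4% and 40.8%. With so wide a background, any count among the 10 has to be read against these shares.

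Il1a (ENSMUSG00000027399), the gene of interleukin 1 alpha, is on chr2:129299610-129309972 of GRCm38. It had 2.70, 2.82, 2.59 and 1.52 CPM in the ASO mix libraries of mice 1 to 4, from 54, 54, 51 and 25 reads. The control ASO libraries held 1, 2, 0 and 0 reads, and the untransfected libraries 1, 0, 2 and 2. Every ASO mix library was therefore above every other library, with the lowest value in mouse 4. Summed over the group, 184 counts against 3 gave a ratio of 66.2 in CPM between the ASO mix and the control ASO (exact 95% interval 22.3 to 324, counting error only). Against untransfected cultures, with 5 counts, the ratio was 39.9 (16.8 to 124). Between the control ASO and untransfected cultures the ratio of 0.603 had an interval of 0.0937 to 3.10, so no difference was detectable at this depth. An antisense gene, Gm14023, shares 222 exon bases with Il1a, and the strand setting of the counting is not given in the sources used here. Gm14023 itself had 15, 21 and 14 reads in the untransfected, control ASO and ASO mix groups, and its part in the Il1a counts was not tested.

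Il1b (ENSMUSG00000027398, chr2:129364570-129371139), the gene of interleukin 1 beta, was close to the limit of counting in all groups. Reads in mice 1 to 4 numbered 15, 14, 9 and 5 in the ASO mix, 2, 5, 6 and 3 in the control ASO and 6, 6, 2 and 1 in untransfected cultures. Its level was higher in the ASO mix than in the control ASO in 4 of 4 mice, but the groups overlapped. The ratio of the ASO mix to the control ASO was 2.90 (exact 95% interval 1.60 to 5.51, counting error only, 43 against 16 counts), and the control ASO was at 1.07 times the untransfected level (0.497 to 2.33). Il1b shares 25 exon bases with the antisense gene Il1bos, which had at most 5 reads in any group.

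**Figure D1:**
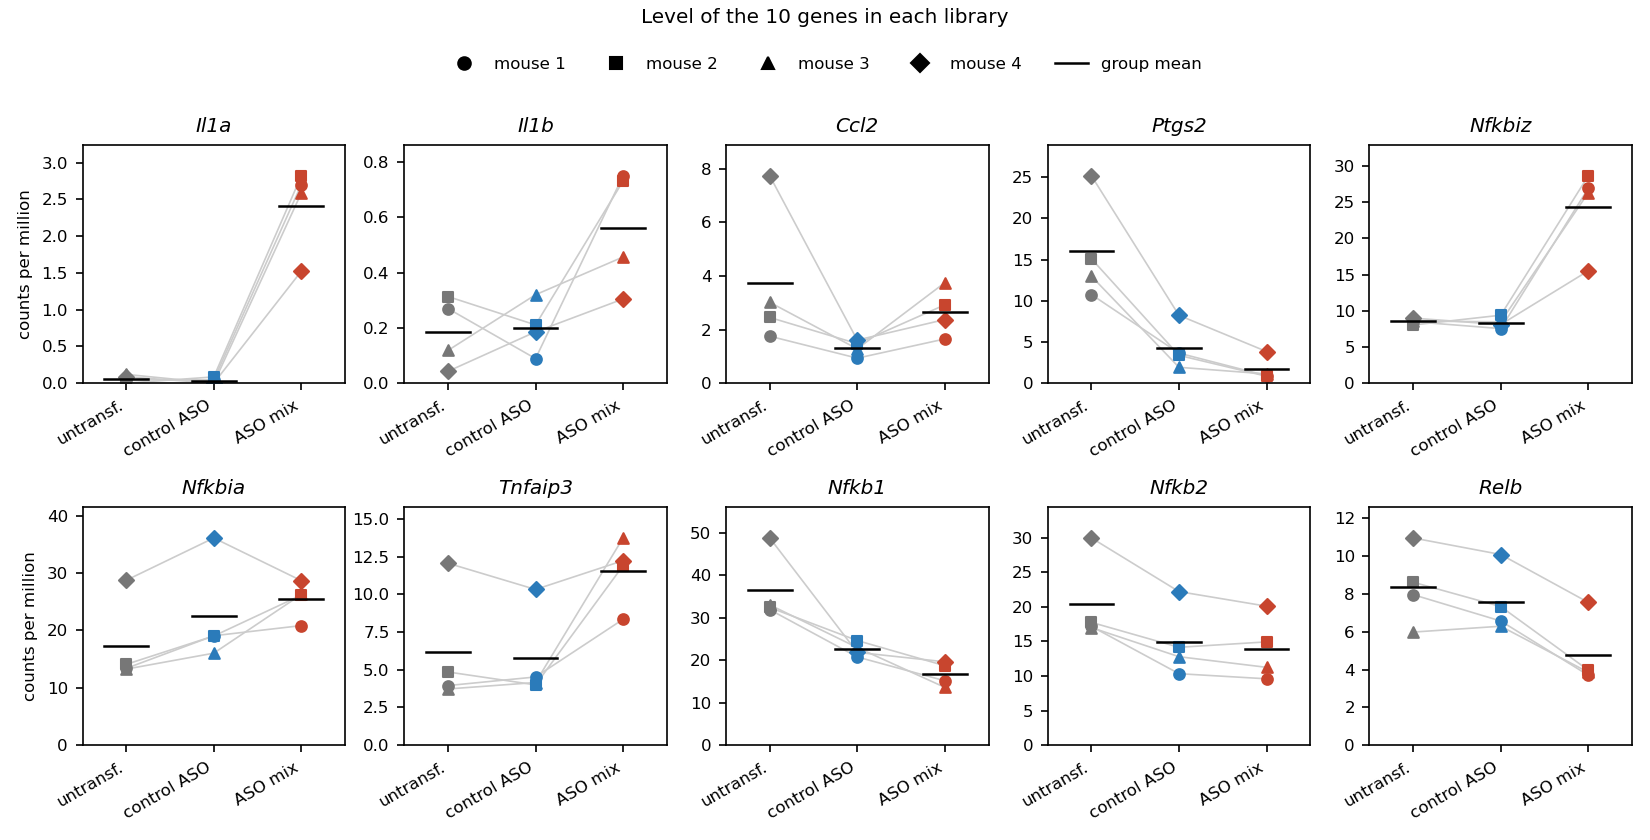
Level of each of the 10 genes in the 12 libraries, in CPM (vertical axis, from 0, with its own scale in each panel), by group. Marker shape gives the mouse, grey lines join the libraries of 1 mouse, and the black bar is the mean of 4 libraries; Il1a and Nfkbiz stand apart in the ASO mix, while Ptgs2 falls from 16.0 to 4.29 to 1.67 CPM on average.

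Markers of immune cells that make interleukin 1 were followed in the same libraries. The macrophage list of 14 genes summed to 28.1 to 51.1 CPM in untransfected cultures, 26.8 to 44.2 in the control ASO and 50.3 to 66.0 in the ASO mix. At an adjusted p under 0.05 in edgeR, 2 of the 10 tested were higher in the ASO mix than in the control ASO and none lower. Over all genes, 27.3% were higher and 28.8% lower. Cd68, a lysosomal protein gene that cells other than macrophages also express, made up much of the sum. It had 38.2 to 46.5 CPM in the ASO mix against 15.9 to 22.3 in the control ASO. The other 13 genes, among them Csf1r, Adgre1 and the C1q genes, summed to 15.1 to 34.3, 10.9 to 22.2 and 9.24 to 27.8 CPM in untransfected, control ASO and ASO mix cultures. The 8 neutrophil genes summed to 0.513 to 4.02, 0.989 to 4.21 and 0.365 to 6.52 CPM, and the 9 lymphocyte genes to at most 1.44 CPM. In the mast cell list, Kit alone gave 32.1 to 45.9, 33.1 to 47.2 and 32.5 to 41.8 CPM in untransfected, control ASO and ASO mix cultures. Each other gene of that list had at most 12 reads in all libraries together. No gene of these lists was at 0 in all libraries. Their part in the Il1a and Il1b levels was not tested.

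Nfkbiz (ENSMUSG00000035356, chr16:55811375-55838899) encodes IkB zeta, a nuclear IkB protein that interleukin 1 is known to induce and that modulates NF-kB targets. Its level was 8.49, 8.04, 8.58 and 8.98 CPM in the untransfected libraries of mice 1 to 4 and 7.54, 9.39, 8.47 and 8.10 in the control ASO libraries. With the ASO mix it was 26.9, 28.7, 26.3 and 15.5 CPM. The ASO mix libraries were all above the other 8, and mouse 4 was again the lowest of them. On the log2 scale the ASO mix was higher than the control ASO by 1.53 ± 0.14 (SE of the fit, 4 of 4 mice), a fold of 2.90. Control ASO and untransfected cultures differed by -0.04 ± 0.15, within the spread between mice.

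Nfkbia (ENSMUSG00000021025, chr12:55489410-55492647), the gene of IkB alpha and a direct NF-kB target, had the highest level per length of the 10. It stood at 13.4, 14.1, 13.3 and 28.7 CPM in untransfected cultures of mice 1 to 4, at 19.1, 19.0, 16.0 and 36.1 in the control ASO and at 20.8, 26.1, 26.3 and 28.7 in the ASO mix. Mice 1 to 3 went up in both steps, while mouse 4 was high from the start and went down in the ASO mix, and the groups overlapped. The control ASO exceeded untransfected cultures by 0.38 ± 0.15 in 4 of 4 mice. The ASO mix exceeded the control ASO by 0.24 ± 0.15 in 3 of 4, and by 0.44 without mouse 4.

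Tnfaip3 (ENSMUSG00000019850, chr10:19000910-19015657) encodes an enzyme that edits ubiquitin chains and shuts off NF-kB signalling. In mice 1 to 4 its level was 3.95, 4.85, 3.73 and 12.1 CPM in untransfected cultures, 4.52, 4.00, 4.16 and 10.3 in the control ASO and 8.35, 11.9, 13.7 and 12.2 in the ASO mix. Mouse 4 had close to its ASO mix level in every condition, and the other 3 mice came up to 8.35 to 13.7 CPM with the ASO mix. The difference between the ASO mix and the control ASO was 1.11 ± 0.27 on the log2 scale, positive in 4 of 4 mice, from 0.24 in mouse 4 to 1.72 in mouse 3. Control ASO and untransfected cultures differed by -0.09 ± 0.28.

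Ptgs2 (ENSMUSG00000032487, chr1:150100031-150108227) encodes the inducible cyclooxygenase of prostaglandin synthesis and is a target of interleukin 1 signalling in many cells. It moved against Il1a and Nfkbiz. Its level in mice 1 to 4 was 10.7, 15.1, 13.0 and 25.1 CPM in untransfected cultures, 3.64, 3.37, 1.92 and 8.22 in the control ASO and 0.899, 0.835, 1.12 and 3.83 in the ASO mix. Both steps were downward in all 4 mice, and mouse 4 was the highest in each group. The control ASO was lower than untransfected cultures by a log2 difference of -1.96 ± 0.18, and the groups did not overlap. A further difference of -1.40 ± 0.25 separated the ASO mix from the control ASO, where mouse 4 of the ASO mix lay within the control ASO range. From untransfected to ASO mix cultures the difference was -3.36 ± 0.21, a 10.3-fold lower level.

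Ccl2 (ENSMUSG00000035385, chr11:82035571-82037453), the gene of the chemokine that attracts monocytes, followed neither pattern. It had 1.75, 2.45, 3.02 and 7.74 CPM in untransfected cultures of mice 1 to 4, 0.931, 1.47, 1.28 and 1.61 in the control ASO and 1.65, 2.92, 3.75 and 2.37 in the ASO mix. All 4 mice went down from untransfected to control ASO cultures, by -1.40 ± 0.31 on the log2 scale. All 4 went up from the control ASO to the ASO mix, by 1.02 ± 0.32, and neither pair of groups overlapped. Both separations were narrow. The highest control ASO library, of mouse 4, had 26 reads (1.61 CPM). The lowest ASO mix and untransfected libraries, both of mouse 1, had 33 reads (1.65 CPM) and 39 reads (1.75 CPM). These gaps rest on a few reads and on the TMM scaling. ASO mix and untransfected cultures overlapped, with 2 mice higher and 2 lower. That difference was -0.38 ± 0.29 and became 0.18 without mouse 4.

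Nfkb1 (ENSMUSG00000028163, chr3:135584655-135691547), which encodes the precursor of the most common partner of RELA, was lower after each step. Untransfected cultures of mice 1 to 4 had 31.9, 32.5, 33.1 and 48.8 CPM, control ASO cultures 20.8, 24.7, 23.0 and 21.9, and ASO mix cultures 15.2, 18.7, 13.6 and 19.7. The 3 groups did not overlap at all. The log2 difference was -0.67 ± 0.10 between the control ASO and untransfected cultures and -0.44 ± 0.11 between the ASO mix and the control ASO, each in 4 of 4 mice.

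Nfkb2 (ENSMUSG00000025225, chr19:46304320-46312385) and Relb (ENSMUSG00000002983, chr7:19606217-19629438) encode the partners of the non-canonical NF-kB dimer. Nfkb2 had 17.2, 17.7, 17.0 and 29.9 CPM in untransfected cultures of mice 1 to 4, 10.3, 14.1, 12.8 and 22.2 in the control ASO and 9.59, 14.9, 11.3 and 20.1 in the ASO mix. Its decrease came with the first step, -0.48 ± 0.09 in 4 of 4 mice. The second step gave -0.09 ± 0.09, with 3 mice lower and 1 higher, and -0.21 when libraries were scaled by size alone. Relb did the opposite, with 7.95, 8.61, 5.98 and 10.9 CPM in untransfected cultures, 6.56, 7.33, 6.29 and 10.1 in the control ASO and 3.70, 3.97, 3.85 and 7.55 in the ASO mix. Its first step was -0.15 ± 0.12 and its second -0.69 ± 0.13, lower in 4 of 4 mice, with mouse 4 of the ASO mix inside the control ASO range. Nfkb2 shares 531 exon bases with AC114539.1, for which no counts were analysed here, and 299 with Psd, both on the opposite strand. Psd had 1185, 1442 and 1610 reads in the 3 groups against 1709, 1168 and 1030 for Nfkb2.

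**Figure D2:**
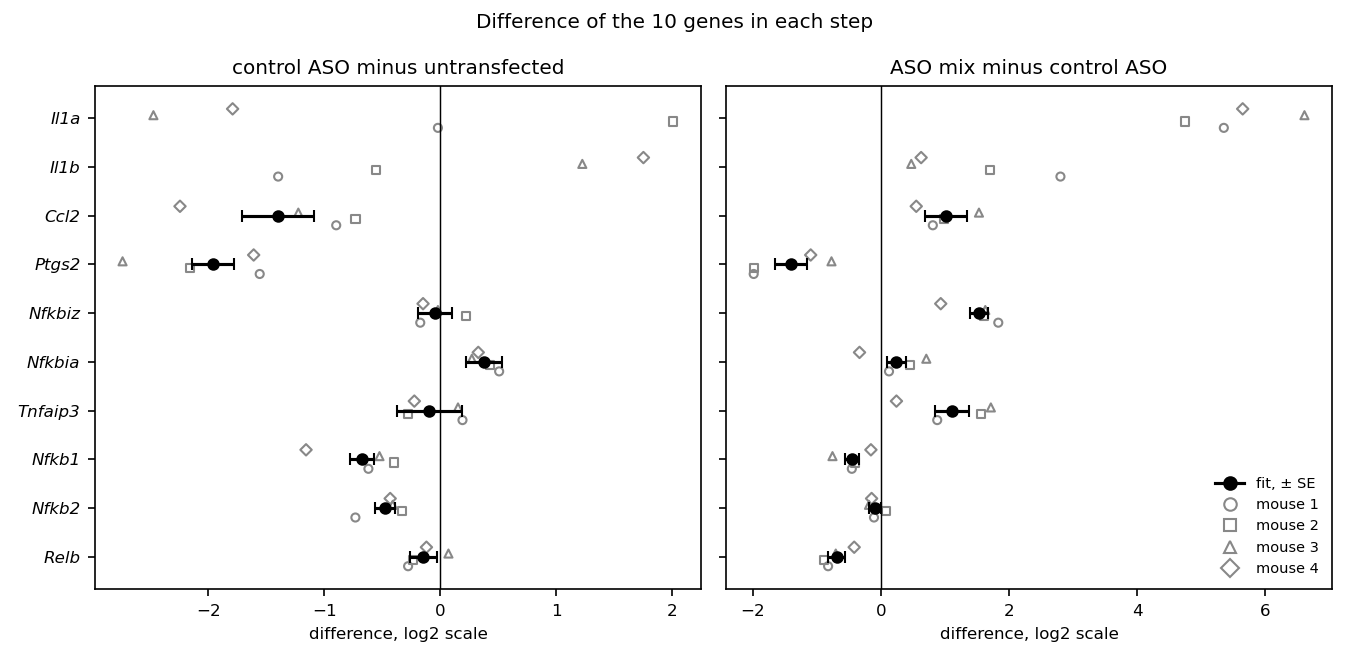
Difference of each of the 10 genes on the log2 scale, with the control ASO minus untransfected cultures on the left and the ASO mix minus the control ASO on the right. Black points and bars are the fit and its SE and open markers are the 4 mice; no fit is drawn for Il1a and Il1b, whose counts are too low in the control groups. Ptgs2 and Nfkb1 lie below 0 in both panels, and Ccl2 lies below 0 on the left and above 0 on the right.

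Set side by side, the 10 genes did not move as 1 group. In the ASO mix against the control ASO, Il1a, Nfkbiz and Ccl2 were higher and Nfkb1 lower with no overlap between groups, which over all genes tested held for 19.4% and 19.4%. The median log2 difference of the 9 genes tested was 0.24, and that of all genes -0.03. For the control ASO against untransfected cultures, Nfkb1, Ptgs2 and Ccl2 were lower without overlap and none was higher, against 12.9% and 10.5% of all genes, with medians of -0.48 and 0.03. For the ASO mix against untransfected cultures, Il1a and Nfkbiz were higher and Nfkb1 and Ptgs2 lower, against 22.8% and 23.2% of all genes, with medians of -0.38 and -0.02. Ccl2 was separated only narrowly wherever it is named here. The comparisons share libraries, and the 10 were chosen on them, so nothing is read from these counts.

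Leaving out mouse 4 from all groups, a choice made after its libraries were seen to differ, raised the counts of separated genes. For the ASO mix against the control ASO, Il1a, Il1b, Nfkbiz, Nfkbia, Tnfaip3 and Ccl2 were then higher and Relb, Nfkb1 and Ptgs2 lower, beside 29.2% and 32.2% of all genes. For the control ASO against untransfected cultures, Nfkbia was higher and Nfkb1, Nfkb2, Ptgs2 and Ccl2 lower, beside 20.3% and 19.3%. For the ASO mix against untransfected cultures, Il1a, Il1b, Nfkbiz, Nfkbia and Tnfaip3 were higher and Relb, Nfkb1, Nfkb2 and Ptgs2 lower, beside 31.2% and 33.3%. These shares are of genes tested, which do not include Il1b. Without it, 5 genes were higher against the control ASO and 4 against untransfected cultures. Il1a is among these and passed the filter only through the ASO mix. Nothing is read from these counts either.

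Mouse 4 differed from the other 3 in the level of these genes before any ASO. In untransfected cultures it had the highest level of 8 of the 9 genes tested, while over all genes it was highest for 37.2%. Its log2 level exceeded the mean of the others by a median of 0.79 over the 9 genes and 0.03 over all genes. In the control ASO it was highest for 6 of 9 (32.5% of all genes), and in the ASO mix for 5 of 9 (35.4%). Ccl2 and Tnfaip3 show the change in its position, since their excess in mouse 4 was 1.68 and 1.52 in untransfected cultures and -0.14 and 0.14 in the ASO mix. Endothelial markers were higher in mouse 4 in all 3 conditions, as given above, and the summed level of 10 neuronal markers was lower, at 5382, 5952 and 6960 CPM against 7339 to 9338 in the other libraries. Their part in these levels was not tested.

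**Figure D3:**
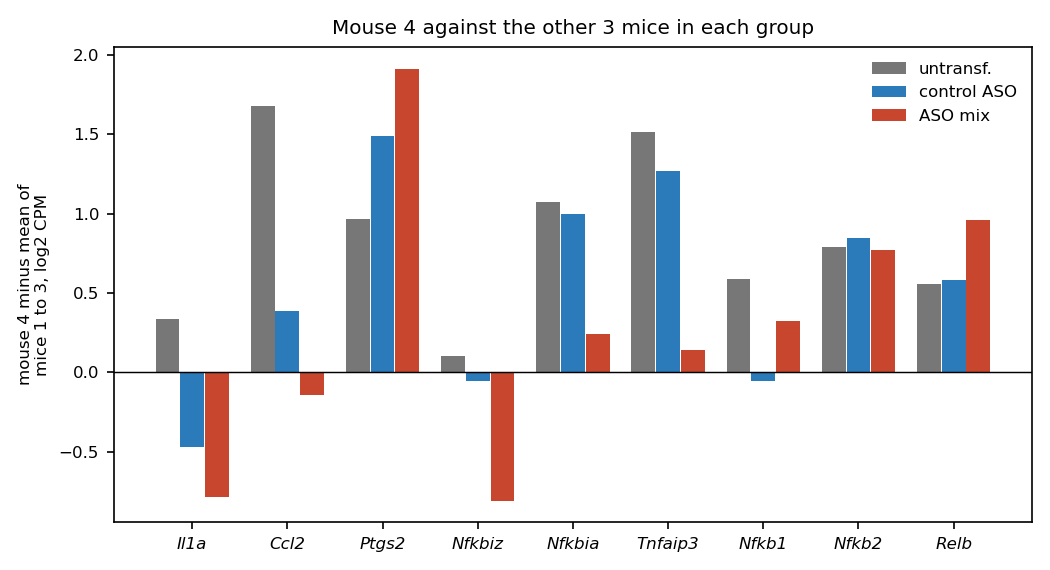
Log2 level in mouse 4 minus the mean log2 level of mice 1 to 3, for the 9 genes tested (horizontal axis), with a bar for each group. Bars above 0 mean a higher level in mouse 4; Tnfaip3 goes from 1.52 in untransfected to 0.14 in ASO mix cultures, and Ptgs2 from 0.97 to 1.91.

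Levels can be compared between genes only per length. In CPM per kilobase of exon, untransfected cultures had 10.8 ± 4.71 of Nfkbia (SD, n = 4) and 4.46 ± 1.38 of Nfkb2. Ptgs2 had 3.49 ± 1.39, Ccl2 3.29 ± 2.39 and Nfkb1 3.03 ± 0.679. Nfkb2 was above Nfkb1 in every mouse, at 3.74, 3.87, 3.71 and 6.53 against 2.65, 2.69, 2.74 and 4.05. Ccl2 was the lowest of these last 4 genes in mice 1 to 3, at 1.54, 2.16 and 2.65, and the highest in mouse 4, at 6.80. Relb followed at 2.16 ± 0.528, Nfkbiz at 1.70 ± 0.0773 and Tnfaip3 at 0.851 ± 0.550, with Il1b at 0.0975 and Il1a at 0.0315 far below. In the ASO mix, Nfkbia remained first at 15.8 ± 2.05 and Nfkbiz came next at 4.85 ± 1.19. Il1a reached 1.22 ± 0.303 CPM per kilobase, within the range of Relb at 1.23 ± 0.478 and Nfkb1 at 1.39 ± 0.237. Ptgs2 had 0.365 ± 0.316, near Il1b at 0.294 ± 0.114.

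Beyond the 10, 164 genes of 10 lists of the surrounding pathways were followed, of which 162 were in the table and 115 were tested in the fit over all genes. In the ASO mix against the control ASO, 25 rose and 50 fell (21.7% and 43.5%, against 27.3% and 28.8% of all genes), with a median log2 difference of -0.27 against -0.03. Of those called, 33.3% were higher, and 22.5% when libraries were scaled by size alone. In the control ASO against untransfected cultures, 12 rose and 28 fell (10.5% and 13.7% of all genes), with a median of -0.01 against 0.03 over all genes, and without the replicate block 21 were called in all. In the ASO mix against untransfected cultures, 27 rose and 61 fell (30.1% and 31.1% of all genes). Some of the 115, among them Il1rl1, Cxcl2, Ptgis and Pla2g4a, passed the filter only through the group in which they were high. The counts here and by list include them. Adjusted p-values below are from edgeR over all 16831 genes.

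Receptors of the interleukin 1 family fell in the first step. Of the 6 genes of the family tested, 5 fell in the control ASO against untransfected cultures and 2, Il1rap and Il1rl1, fell further in the ASO mix, where 13.7% and 28.8% of all genes fell in these steps. Il1rap, the accessory chain without which the interleukin 1 receptor does not signal, went from 25.1 ± 9.41 CPM in untransfected (SD, n = 4) to 2.95 ± 0.916 in control ASO and 1.87 ± 0.529 in ASO mix cultures. Its first log2 difference was -3.06 ± 0.13 (adjusted p = 7.1e-12, lower in 4 of 4 mice). The second was -0.65 ± 0.17 (adjusted p = 0.0041) and did not pass without the replicate block (adjusted p = 0.121). Il1r1, the signalling receptor chain, fell by 0.38 on the log2 scale in the first step (adjusted p = 0.014, and 0.0705 without the block or 0.0788 without mouse 3), and its second difference of -0.24 had an adjusted p of 0.078. Il1rn, the receptor antagonist, fell in the first step by 1.10 (adjusted p = 0.032, and 0.0508 to 0.13 without mouse 2, 3 or 4) and was at 0.16 ± 0.39 in the second. Il1rl1, the receptor of interleukin 33, passed the filter only through untransfected cultures, with 213 reads there, 47 in the control ASO and 20 in the ASO mix. Its fall is counted in the 5 and the 2 above, although the filter kept it only because it was high in untransfected cultures. Its second difference did not pass without the block (adjusted p = 0.169) or without mouse 1, 2 or 3 (0.0689 to 0.16).

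Marker lists of 6 other cell types did not share 1 course in the first step. Over all genes, 13.7% fell and 10.5% rose in that step, and 28.8% fell and 27.3% rose in the second. The sensory neuron list had 3 of 10 genes higher in the first step, 5 of 10 in the second and none lower. The 8 Schwann cell markers summed to 347 to 545 CPM in untransfected and 151 to 226 in control ASO cultures, with 6 of 8 lower. The 7 fibroblast markers summed to 801 to 884 and 369 to 418 CPM, with 4 of 7 lower, and the 6 mural cell markers to 302 to 514 and 108 to 166 CPM, with 4 of 6 lower. Satellite glia markers summed to 372 to 654 and 427 to 604 CPM, with 3 of 6 lower, and endothelial markers to 20.7 to 121 and 15.4 to 102 CPM, with 1 of 6 lower. In the ASO mix against the control ASO, 6 of 8 Schwann cell, 3 of 7 fibroblast and 3 of 6 mural cell markers fell and 1 of each list rose. Of the 6 satellite glia markers 2 rose and 2 fell, and of the 6 endothelial markers none rose and 2 fell. The Schwann cell, fibroblast and mural cell sums were 172 to 224, 454 to 594 and 95.9 to 274 CPM in the ASO mix. These sums do not show the falls in their lists, because S100b, Thy1 and Rgs5 made up much of them. Sox10, of Schwann cells, had 68.1 to 119 CPM in untransfected, 11.2 to 31.2 in control ASO and 1.05 to 6.76 in ASO mix cultures. Col1a1, of fibroblasts, had 157 to 182, 6.02 to 14.5 and 2.89 to 6.05 CPM in the same order. Both genes were picked after their values were seen, and some genes of their lists took another course. S100b, also of the Schwann cell list, had 67.6 to 85.5, 80.7 to 82.9 and 118 to 177 CPM. In the fibroblast list, Thy1 had 255 to 325, 289 to 330 and 395 to 553 CPM. Pdgfra, with 14.6 to 18.4, 15.8 to 17.1 and 14.3 to 16.9 CPM, overlapped between all groups. So did Dcn, with 14.2 to 21.9, 12.2 to 17.2 and 12.8 to 18.3 CPM. The part of these cell types in the levels of Il1rap, Nfkb1, Ptgs2 and Ccl2 was not tested.

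Of 26 adaptors and kinases between the receptor and NF-kB tested, 21 fell and 2 rose in the ASO mix against the control ASO (28.8% and 27.3% of all genes), with a median log2 difference of -0.39 against -0.03 over all genes. In the control ASO against untransfected cultures 5 fell and 2 rose (13.7% and 10.5% of all genes). Irak1, a kinase at the receptor, fell from 42.4 ± 2.95 to 27.3 ± 5.82 CPM (-0.65 ± 0.08, adjusted p = 2.1e-06). Tirap, an adaptor of Toll-like receptors, fell by 0.86 (adjusted p = 6.2e-07), and Ikbkg, the regulatory subunit of the IkB kinase, by 0.40 (adjusted p = 4.3e-05). Tollip, a protein that restrains IRAK1, rose by 0.63 ± 0.06 in 4 of 4 mice (adjusted p = 1.7e-07). Myd88 rose in the first step by 0.45 ± 0.08 (adjusted p = 0.00045). Its second difference of -0.19 had an adjusted p of 0.049, and the call was lost without the block (0.0916), without mouse 1, 3 or 4 (0.0616 to 0.264), and under DESeq2, both of the other filters and several other settings (0.054 to 0.148).

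The other REL and IkB genes split evenly, with 3 of 7 higher and 3 lower in the ASO mix against the control ASO (27.3% and 28.8% of all genes). Rela, the main activating subunit, rose from 46.6 ± 1.34 to 62.5 ± 6.81 CPM (0.42 ± 0.06, adjusted p = 2.5e-05), while Rel fell by 1.06 ± 0.16 (adjusted p = 3.3e-05). Among the inhibitors, Nfkbid rose from 2.03 ± 0.316 to 7.50 ± 3.33 CPM (1.84 ± 0.22, adjusted p = 4.3e-06) and Nfkbib rose by 0.79 (adjusted p = 1.5e-06). Nfkbid encodes another nuclear IkB protein, of the same kind as Nfkbiz. Bcl3, the remaining nuclear member, fell in both steps, by 0.58 in the first (adjusted p = 0.00019) and 0.47 in the second (adjusted p = 0.00084).

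Of 11 feedback inhibitors tested beside Tnfaip3, 6 fell and 1 rose in the ASO mix against the control ASO (28.8% and 27.3% of all genes). Tnip1, the binding partner of the Tnfaip3 protein, fell by 0.37 (adjusted p = 0.00016), and the deubiquitinases Otud7b and Cyld fell by 0.67 (adjusted p = 1.9e-06) and 0.35 (adjusted p = 0.00082). Zfp36, which destabilises cytokine mRNAs, rose by 0.41 ± 0.09 in 4 of 4 mice (adjusted p = 0.00055). Of 12 receptors of the TNF and Toll-like families tested, 5 fell and 2 rose (28.8% and 27.3% of all genes). Tnfrsf1a, the main receptor of TNF, fell in both steps, by 0.62 (adjusted p = 1.1e-05) and by 0.72 (adjusted p = 2.3e-06).

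Of 10 secreted targets tested, 4 rose and 2 fell in the ASO mix against the control ASO (27.3% and 28.8% of all genes), and the chemokine genes Cxcl1, Cxcl2 and Cxcl16 were among the 4. Cxcl10, another CXC chemokine and named after its values were seen, was at -0.03 ± 0.30 (adjusted p = 0.946, higher in 2 of 4 mice). Cxcl16 went from 3.62 ± 0.881 in the control ASO to 15.4 ± 4.13 CPM (2.11 ± 0.24, adjusted p = 3.9e-05). Cxcl1 went from 1.89 ± 1.76 to 8.26 ± 4.12 CPM (2.31 ± 0.51, adjusted p = 0.0059, and 0.0576 without the replicate block), and both were higher in 4 of 4 mice. Cxcl2 passed the filter only through the ASO mix, with 10, 53, 72 and 35 reads in mice 1 to 4 against 1, 6, 1 and 9 in the control ASO and 0, 2, 0 and 16 in untransfected cultures. Its rise is counted among the 4 above, although the filter kept it only because it was high in the ASO mix. Its ratio of the ASO mix to the control ASO was 10.8 (exact 95% interval 6.54 to 18.9, counting error only, 170 against 17 counts). Csf1, the growth factor of macrophages, fell by 0.70 (adjusted p = 6.8e-06), and Il11 fell in both steps, by 2.28 (adjusted p = 0.00013) and 1.62 (adjusted p = 0.0045). Lif, a cytokine of injured ganglia, fell from 48.7 ± 9.33 in untransfected to 8.29 ± 0.815 CPM in control ASO cultures (-2.55 ± 0.14, adjusted p = 6.6e-08). Il6 and Tnf had only 71 and 26 reads in all 12 libraries and were not tested.

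Among intracellular and surface targets of NF-kB, 6 of 23 tested rose and 6 fell in the ASO mix against the control ASO, 26.1% each, close to the 27.3% and 28.8% of all genes. Birc3, an inhibitor of apoptosis that is a standard NF-kB target, fell from 4.33 ± 1.31 to 1.60 ± 1.06 CPM (-1.52 ± 0.21, adjusted p = 9.4e-06). Plau, the urokinase gene, rose by 1.08 ± 0.19 (adjusted p = 0.00025), and the kinase gene Nuak2 by 0.98 ± 0.18 (adjusted p = 0.00019).

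In the prostaglandin pathway around Ptgs2, 6 of 14 tested genes rose and 3 fell in the same comparison (27.3% and 28.8% of all genes). Ptges, the synthase that works with the inducible cyclooxygenase, fell from 6.60 ± 0.364 to 3.46 ± 0.572 CPM (-0.93 ± 0.12, adjusted p = 7e-06). Pla2g4a, the phospholipase that supplies the substrate, passed the filter only through untransfected cultures. It had 177 reads there, 53 in the control ASO and 12 in the ASO mix. Its fall is counted among the 3 above, although the filter kept it only because it was high in untransfected cultures. Ptges2, another prostaglandin E synthase, rose by 0.78 (adjusted p = 1.1e-06), and Ptger3, a receptor of prostaglandin E on sensory neurons, by 0.71 ± 0.10 (adjusted p = 2.6e-05). The receptor of CCL2, Ccr2, had 14 reads in all and was not tested. Of the list of CCL2 receptors, 2 genes were tested, and 1 rose and 1 fell (27.3% and 28.8% of all genes). Ackr1, a chemokine-binding receptor that does not signal through G proteins, rose from 62.6 ± 12.7 to 83.9 ± 18.3 CPM (0.42 ± 0.06, adjusted p = 1.1e-05, and 0.114 without the replicate block). Ackr1 shares 361 exon bases with Cadm3 on the same strand, so its count is uncertain. Ackr2 fell, with a log2 difference of -1.09 to -0.64 in fits that left out 1 mouse. Its call was lost under DESeq2 (adjusted p = 0.0953) and in edgeR without mouse 1 (0.156) or mouse 3 (0.15). Exon bases are also shared with a gene on the opposite strand by Il1rap, Myd88, Tirap, Ikbkg, Nfkbib, Bcl3, Zfp36 and Cxcl16, whose counts are uncertain to that extent.

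**Figure D4:**
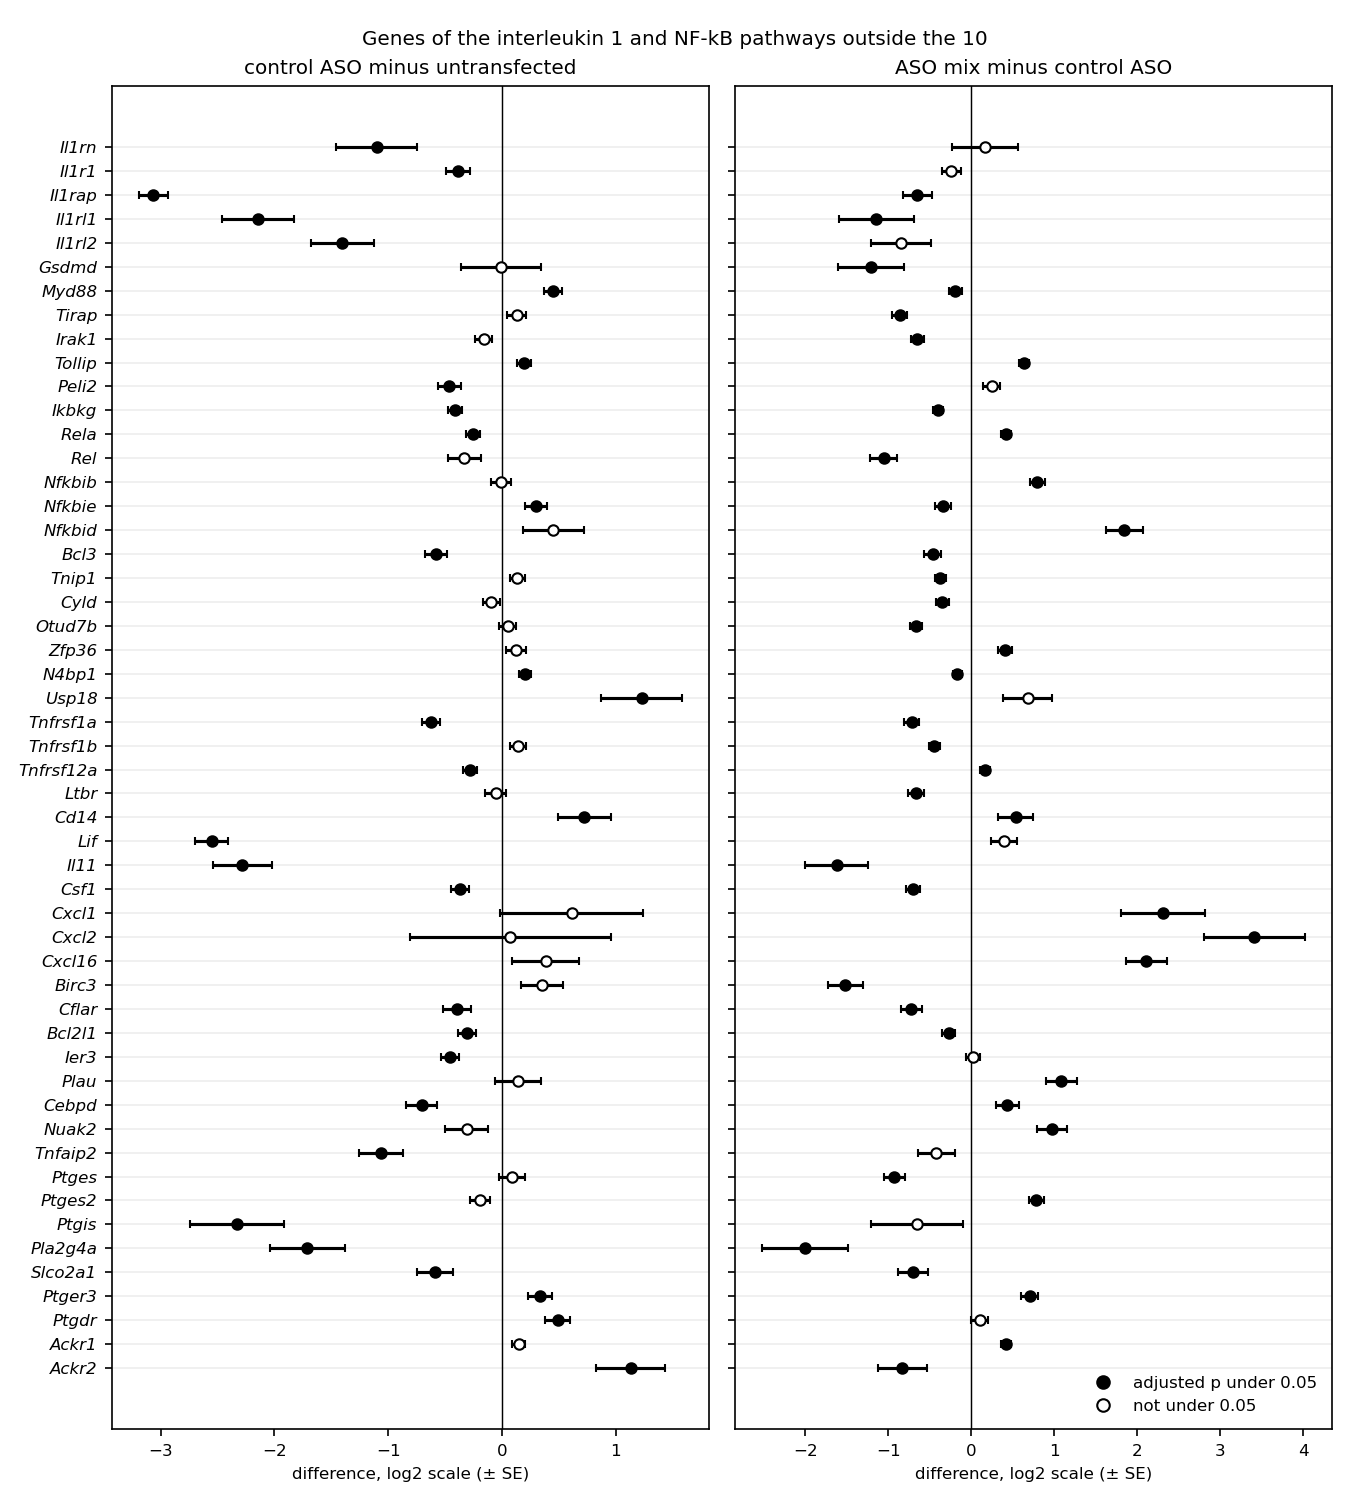
Log2 difference with its SE (horizontal axis) of the pathway genes outside the 10 that were named by rule and tested, grouped by role from receptors at the top to prostaglandin and chemokine receptor genes at the bottom. Filled points had an adjusted p under 0.05; Il1rap lies at -3.06 in the first step (left) and Cxcl16 at 2.11 in the second (right). Il1rl1, Cxcl2, Ptgis and Pla2g4a passed the filter on low counts only through the group in which they were high.

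The genes whose pattern over the 12 libraries was most like that of a member were found by the root mean square difference of log2 CPM, each gene centred on its own mean, among 11875 genes. For Nfkbia they were Irf1 (0.168), Trp53inp1 (0.192) and Mybl1 (0.193), beside a standard deviation of 0.463 for Nfkbia itself. Il1a, Nfkbiz and Ptgs2 were added after their values were seen. Nearest to Nfkbiz were Zfp428 (0.124), Srsf2 (0.126) and Gadd45g (0.144), with a standard deviation of 0.731 for Nfkbiz. Ptgs2 lay nearest to Phldb2 (0.308), Wwtr1 (0.359) and Cobll1 (0.367), all 3 of which had their highest mean in untransfected and their lowest in ASO mix cultures. Nearest to Il1a was Fndc9 (0.546), beside a standard deviation of 1.98 for Il1a, and the standard deviation of Ptgs2 was 1.55.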

How the data were processed

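Total RNA of 12 primary DRG cultures was purified with the RNeasy Mini kit, made into TruSeq Stranded RNA libraries and sequenced as paired reads on a NovaSeq, per the labels' protocols. The authors deposited raw gene counts. Tools listed in the submitters' processing notes are bcl2fastq 2.17, STAR and HTSeq, and the builds listed are mm10 and GRCm38. Neither annotation release nor strand setting was given in the sources used here. Of 48795 gene IDs, 48435 were matched to a symbol in GENCODE mouse release 21 (GRCm38), which also gave coordinates and exon lengths.

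Counts were fitted with edgeR 4.0.16 under R 4.3.3 (robust quasi-likelihood, TMM scaling, default filter by group with a minimum count of 10, all 12 libraries), with group and mouse as terms, and p-values were adjusted by the Benjamini-Hochberg method over 16831 genes. Calls were made at an adjusted p under 0.05. SE is the log2 difference divided by the root of the F statistic. Differences per mouse used counts plus 0.5. Libraries of the same mouse deviated together from their group means (r of 0.138 to 0.557, best with its own mouse in 24 of 24 cases), and the pairing comes from the series design. The fit was also run on simulated counts with no differences between mice and few changed genes. These data differ from that setting, so nothing is read from the run. Intervals of low counts are exact and cover counting error only, since reads without molecular identifiers are not independent molecules.

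The 10 genes, the pathway lists and the marker lists were chosen with earlier results of these data known. Named pathway genes were up to 3 of the smallest p per list and comparison among those called, plus partners of the 10 whatever their p. The pattern likeness planned for Il1b was not computed because Il1b did not pass the filter. Alternatives were no replicate block, other scalings, DESeq2 1.42.0, limma-voom (limma 3.58.1), other filters, only the groups compared, leaving out 3 ribosomal loci, and leaving out each mouse. Counts of genes whose groups do not overlap without mouse 4 were added after seeing the data.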

Additional observations from a re-analysis of the deposited data

Results flagged for a closer look

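A library far from the other 3 of its group was found 23 times among 195 groups of 4 values, by Dixon's test at the 95% level, which chance alone gives in about 1 of 20 groups. Among the 10 genes, 8 groups were set apart, and in each the library was that of mouse 4 and the value was above the others. Nfkbia had 28.7 CPM in untransfected cultures (others 13.3 to 14.1) and 36.1 in the control ASO (16.0 to 19.1). Tnfaip3 had 12.1 in untransfected cultures (3.73 to 4.85) and 10.3 in the control ASO (4.00 to 4.52). In untransfected cultures Nfkb1 had 48.8 (31.9 to 33.1) and Nfkb2 29.9 (17.0 to 17.7). In the ASO mix Relb had 7.55 (3.70 to 3.97) and Ptgs2 3.83 (0.835 to 1.12).

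Of the other pathway genes, the untransfected library of mouse 4 stood apart for Birc3 at 6.46 CPM, Cxcl1 at 3.81, Cxcl2 at 0.684, Il1rap at 39.0, Slco2a1 at 10.01 and Zfp36 at 13.7. Its control ASO library stood apart for Cebpd at 19.3 CPM, Il11 at 7.17 and Ltbr at 21.8. Its ASO mix library did so for Bcl2l1 at 64.2 CPM, Ccr2 at 0.0609 (listed at 0 in the others) and Tnf, listed at 0 (others 0.0999 to 0.104). In other mice, Ackr2 was low at 0.884 CPM in the control ASO library of mouse 2, Lif was high at 14.2 in the ASO mix library of mouse 2, and Tnf had 0.160 in the control ASO library of mouse 3 with the others at 0. Ccr2 and Tnf rest on a handful of reads. Of the 23 values, 20 belong to mouse 4.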

How the results depend on the processing

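No difference of the 10 genes larger than 2 SE changed direction under any alternative, and no called pathway gene that was named reversed. Genes called for the control ASO against untransfected cultures numbered 4081, but 2391 without the replicate block, and the pathway genes among them 40, but 21 without the block. Leaving out 1 mouse gave 2540 to 3946 and 26 to 37, the lowest without mouse 3. For the ASO mix against the control ASO, 9454 genes and 75 pathway genes were called with all mice. Fits that left out 1 mouse called 7390 to 10217 and 60 to 81. Against untransfected cultures the counts were 10307 and 88 with all mice, and 8857 to 10770 and 74 to 85 without 1 mouse. The median log2 difference of the 9 genes tested was -0.48 between control ASO and untransfected cultures. It became -0.30 under a stricter filter and -0.33 with only the compared groups, both of which test fewer of the genes. With only these groups Il1a cannot pass the filter, since it had at most 2 reads in any of their libraries. The median ranged from -0.52 to -0.18 when 1 mouse was left out. On leaving out 1 mouse, the median for the ASO mix ranged from 0.11 to 0.44 against the control ASO and from -0.57 to 0.18 against untransfected cultures, positive in the fit without mouse 4, and a stricter filter gave 0.09 against the control ASO. Apart from the number of genes tested, the cause of these shifts was not tested. Scaling by library size alone moved the median of all genes from -0.03 to -0.15 in the first of these comparisons. Among named pathway genes, 50 calls were lost and 27 gained over the alternatives that kept all mice, and 59 lost and 6 gained over those that left 1 out. Depth limits Il1b, and Il1a outside the ASO mix, to intervals of their summed counts.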
